A study of Homo sapiens with 12 samples.

Results

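The genes described here are 44 genes of the lysosome and of autophagy, chosen by name, out of 60591 genes in the table. They comprise 3 transcription factors (TFEB, TFE3 and MITF), 4 proteins of the lysosome membrane, 9 cathepsins and 7 enzymes or carriers that break down or move sugars and lipids. The others are 9 subunits of the V-ATPase, 3 ATG8 proteins, 2 autophagy receptors and 7 proteins of autophagy initiation and membrane growth. All 44 were found under their symbols and passed the filter on low counts, which kept 19108 genes for testing. RNA was sequenced in bulk from PC9 and H1650, 2 established human lines of non-small cell lung cancer, labelled wild-type, that share the same activating deletion in EGFR. PC9 or H1650 cells taken at the time of drugging (T0, 0 h, 0.1% DMSO) were compared with cells of that line kept for 36 h with 10 µM erlotinib or with 0.1 µM osimertinib, both inhibitors of the EGFR kinase. Each of the 6 groups held 2 libraries, 12 in all. The study asked whether the expression changes that the drugs cause differ between a line that EGFR inhibitors kill and a line that they do not. No library of cells kept for 36 h with vehicle was analysed here, so each change from T0 includes any change with time in culture. In bulk RNA fewer cells of a type and less RNA per cell cannot be told apart.

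Lysosomes are acidic compartments in which hydrolases digest proteins, sugars and lipids, and the V-ATPase pumps in the protons that keep them acidic. In autophagy a double membrane closes around cytoplasm, is decorated with ATG8 proteins that receptors bind, and fuses with the lysosome. Many genes of both systems carry an E-box motif that TFEB, TFE3 and MITF can bind. The mTORC1 complex, a kinase activated downstream of EGFR and PI3K, holds TFEB and TFE3 in the cytoplasm while nutrients and growth factors are plentiful.

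The promoters of 5 of these genes are shown because they hold the 8-letter form of that motif and because their transcripts went different ways, up in GAA, CTSA and LAMP1, down or not called in ATP6V0D1, and not called in MCOLN1. GAA is the acid glucosidase of glycogen, CTSA a carboxypeptidase that also stabilizes other lysosomal enzymes, LAMP1 a main glycoprotein of the lysosome membrane, ATP6V0D1 a V-ATPase subunit and MCOLN1 a calcium channel of the lysosome. The sequences are RefSeq's on GRCh38.p14, read 5′ to 3′ on the strand of the gene from 100 or, for LAMP1, 200 bases before the annotated start to 20 bases after it, and the capitals mark CACGTG.
GAA (chr17:80101481-80101600, plus strand): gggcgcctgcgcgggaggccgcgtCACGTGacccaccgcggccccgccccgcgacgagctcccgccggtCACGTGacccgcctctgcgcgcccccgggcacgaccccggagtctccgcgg
CTSA (chr20:45891235-45891354, plus strand): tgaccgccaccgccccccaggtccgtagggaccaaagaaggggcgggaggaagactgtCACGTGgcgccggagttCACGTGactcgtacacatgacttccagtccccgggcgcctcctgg
LAMP1 (chr13:113297039-113297258, plus strand): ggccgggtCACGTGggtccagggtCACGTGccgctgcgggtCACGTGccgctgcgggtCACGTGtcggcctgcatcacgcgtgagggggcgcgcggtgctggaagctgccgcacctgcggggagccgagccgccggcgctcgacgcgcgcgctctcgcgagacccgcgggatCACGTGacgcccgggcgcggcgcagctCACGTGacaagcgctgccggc
MCOLN1 (chr19:7522524-7522643, plus strand): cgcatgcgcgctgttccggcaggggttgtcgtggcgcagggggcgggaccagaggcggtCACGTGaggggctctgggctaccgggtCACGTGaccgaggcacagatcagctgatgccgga
ATP6V0D1 (chr16:67481138-67481257, minus strand): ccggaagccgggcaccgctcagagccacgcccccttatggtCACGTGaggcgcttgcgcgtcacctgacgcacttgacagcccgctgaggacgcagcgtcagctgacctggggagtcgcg

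Promoter entries were given for 34 of the 44 genes, in 46 windows of 300 bases that reach from 250 bases before to 50 bases after each start. CACGTG, searched on both strands (the motif reads the same on either), was present in 9 of the 46 windows (19.6%), belonging to LAMP1, MCOLN1, CTSA, CTSD, CTSF, GAA, NEU1, ATP6V0D1 and ATG14, and in 7.26% of all 35116 windows. The longer form TCACGTGA was present in 5 of the 46 (10.9%) and in 0.98% of all windows, and each match to it is also a match to CACGTG. Of the 9 genes with CACGTG, 7 were higher than T0 with erlotinib in PC9, 1 was lower and 1 was not called. Of the 25 genes whose window lacked it, 15 were higher, 6 lower and 4 not called. For osimertinib in PC9 the counts were 7 higher and 0 lower of the 9, and 16 higher and 6 lower of the 25. In H1650 they were 6 higher and 1 lower of the 9 with erlotinib and 7 and 1 with osimertinib, beside 12 and 5, and 12 and 3, of the 25. Of the 5 genes with TCACGTGA, 3 were higher in each of these 4 comparisons. A further 1 was lower in each except PC9 with osimertinib. Among all genes tested, 32.7% rose with each drug in PC9, while 29.1% fell with erlotinib and 28.7% with osimertinib. For erlotinib in H1650 the background was 18% higher and 18.5% lower, and for osimertinib 17.8% and 17.9%. The share among all genes with CACGTG in their window was not computed. These counts are a description and were not tested. A match in letters is not a bound site, and no match says only that these letters are not in this window.

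Library totals ran from 17961765 to 26346187 counts, and the replicates of a group differed by more than counting noise in every group. Levels are given as normalized CPM (counts scaled to a common library size after TMM normalization), on which 3 counts are 0.116 to 0.168 CPM. The study calls the 2 replicates of a group biological, while the labels do not say whether they were separate cultures, so p-values measure only the spread between these libraries. The epithelial markers EPCAM, CDH1, KRT8, KRT18 and KRT19 were high in all 12 libraries, with summed levels that moved with treatment. The sum was 8020.1 and 8072 CPM at T0 in PC9, 5940.3 and 5948 CPM after erlotinib and 8454 and 9156 CPM after osimertinib. In H1650 it was 6260.1 and 6528 CPM at T0, 5166 and 5202 CPM after erlotinib and 7954 and 8628 CPM after osimertinib. Mitochondrial genes held 4.36% to 5.36% of the counts of the 4 T0 libraries and 5.77% to 7.20% of those of the 8 treated ones. Of 6 leukocyte markers, PTPRC, CD3E and AIF1 had at most 5 counts in any library, while CSF1R reached 56.6 CPM and ITGAM 18.3 CPM. The summed leukocyte list ran from 4.84 to 6.37 CPM at T0 to 22.3 to 23.5 CPM after osimertinib in PC9 and from 54.6 to 59.2 CPM at T0 to 21.5 to 22.1 CPM after erlotinib in H1650. The sum of 3 endothelial markers, PECAM1, VWF and CDH5, ran from 0.193 to 5.55 CPM over the 12 libraries. The part of these markers and of the mitochondrial share in the results on lysosomal genes was not tested.

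In PC9 cells, most of the genes were higher after either drug than at T0. After erlotinib 27 of the 44 rose and 9 fell (adjusted p under 0.05, from edgeR's quasi-likelihood test and Benjamini-Hochberg's method over all genes tested). Of all 19108 genes tested, 61.8% passed that threshold, 32.7% as higher and 29.1% as lower, so the share that rose among the 44 (61.4%) was above the background and the share that fell (20.5%) below it. After osimertinib 29 of the 44 rose and 7 fell, beside a background of 61.4% called, 32.7% higher and 28.7% lower. The median log2 fold change over the 44 was 0.36 after erlotinib and 0.58 after osimertinib, against medians of 0.074 and 0.064 over all genes tested. The change exceeded 2-fold in 16 of the 44 genes after erlotinib and in 15 after osimertinib. No share of all genes tested is set beside these 2 counts, so they describe the 44 genes only.

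In H1650 cells the same drugs gave fewer calls and a smaller median change. After erlotinib 20 of the 44 rose and 6 fell, beside a background of 36.5% called, 18% higher and 18.5% lower. After osimertinib 23 rose and 4 fell, beside 35.7% called, 17.8% higher and 17.9% lower. The medians over the 44 were 0.20 and 0.22, against 0.0051 and 0 over all genes. Of the 44, none passed 2-fold after erlotinib and CTSD alone did after osimertinib, again with no share of all genes beside it. Both drugs of a line were compared with the same T0 libraries, so their counts within a line are not independent.

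Across both lines and both drugs, 16 of the 44 genes rose in all 4 comparisons. The shares of all genes tested that rose in all 4, fell in all 4 or were called in none were not computed. The counts of these patterns therefore describe the 44 genes only. The 16 were the membrane protein LAMP1, the cathepsins CTSA, CTSD, CTSF, CTSH and CTSK, the hydrolases GAA, GLB1, HEXA and LIPA, the V-ATPase accessory subunit ATP6AP1, the ATG8 protein GABARAPL1, the receptor NBR1, and ULK1, ATG14 and WIPI2 of the early steps of autophagy. GLA, the α-galactosidase of the lysosome, was the 1 gene that fell in all 4. TFE3, MCOLN1, ATP6V1C1 and ATP6V1H were called in none of them. Of these, TFE3 and ATP6V1C1 did pass the test in some of 19 alternative analyses (other tools, normalizations or filters, or 1 library left out). No gene was called in opposite directions by the 2 drugs within a line in the reported analysis. With a term for the replicate number in the fit, ATP6V1A was called so in PC9. There it was lower with erlotinib, log2 -0.15 (adjusted p = 0.0375, edgeR's quasi-likelihood test), and higher with osimertinib.

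**Figure D1:**
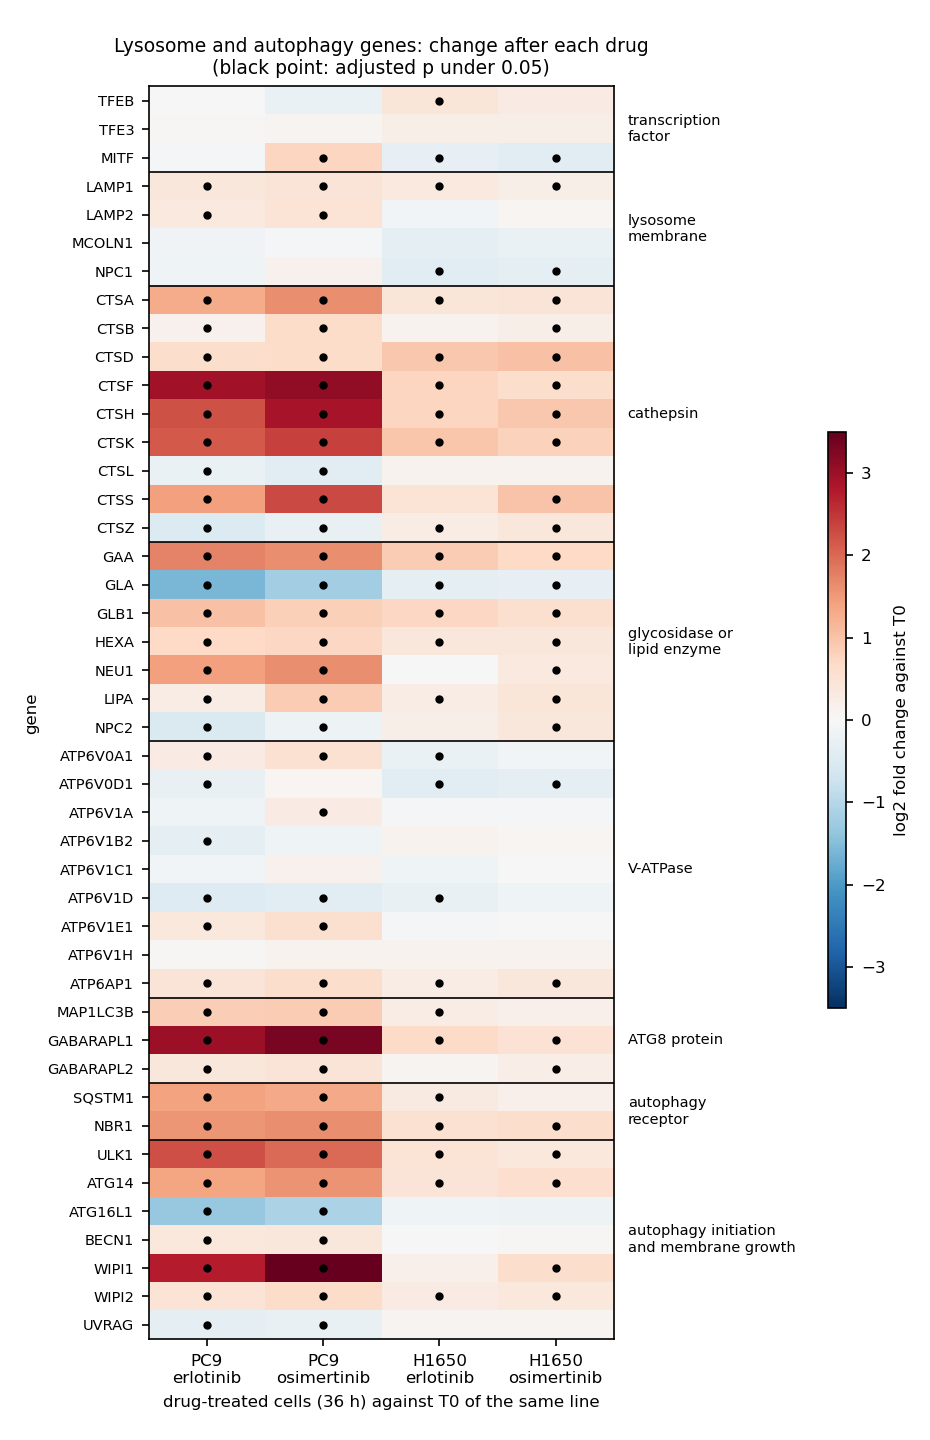
Log2 fold change of the 44 genes (rows, ordered by role) after each drug against T0 in PC9 and H1650 (columns) on a color scale symmetric about 0. Black points mark adjusted p under 0.05. The deepest reds lie in the PC9 columns at CTSF, CTSH, GABARAPL1 and WIPI1, and the V-ATPase block stays pale in all 4 columns.

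Of the 3 transcription factors, TFEB and TFE3 were not called in PC9, where most of the other genes rose. TFEB (chr6:41683978-41736259, GENCODE 29 on GRCh38) was at 4.69 and 5.43 CPM at T0 in PC9, 5.29 and 4.76 CPM after erlotinib and 4.16 and 4.54 CPM after osimertinib. Its log2 fold change was -0.014 (SE 0.16, adjusted p = 0.964) with erlotinib and -0.22 (SE 0.17, adjusted p = 0.262) with osimertinib, and neither passed the test. In H1650, TFEB was at 26.7 and 23.1 CPM at T0, 33.7 and 33.2 CPM after erlotinib and 31.3 and 29.1 CPM after osimertinib. It rose with erlotinib by a log2 fold change of 0.43 (SE 0.11, adjusted p = 0.00295), a call lost without H1650 T0 replicate 2 (0.33, adjusted p = 0.0826). It did not pass the test with osimertinib, at log2 0.28 (SE 0.11, adjusted p = 0.0506), but it was called in 7 of 19 alternative analyses (adjusted p from 0.0280 to 0.0474). At T0 the level in H1650 was 4.91 times that in PC9.

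TFE3 ran from 46.4 to 67.6 CPM over the 12 libraries and was not called against T0 in either line. In PC9 its log2 fold changes were 0.028 (SE 0.085, adjusted p = 0.806) with erlotinib and 0.084 (SE 0.086, adjusted p = 0.410) with osimertinib. In H1650 they were log2 0.20 (SE 0.083, adjusted p = 0.0580) and 0.20 (SE 0.083, adjusted p = 0.0590). There it was called higher in 4 of 19 alternatives with erlotinib (adjusted p from 0.00993 to 0.0479) and in 3 with osimertinib (adjusted p from 0.0101 to 0.0383). MITF, best known as the factor of pigment cells, was called in opposite directions in the lines with osimertinib. In PC9 it was at 21.9 and 24.7 CPM at T0, 22.3 and 23.0 CPM after erlotinib and 38.1 and 40.0 CPM after osimertinib. The osimertinib libraries lay above the other 4 of PC9, with a log2 fold change against T0 of 0.74 (SE 0.092, adjusted p = 5.27e-08), while erlotinib gave -0.041 (SE 0.094, adjusted p = 0.735). In H1650 it fell from 68.6 and 67.4 CPM at T0 to 54.6 and 55.7 CPM after erlotinib, log2 -0.30 (SE 0.083, adjusted p = 0.00500), and to 54.3 and 51.6 CPM after osimertinib, -0.36 (SE 0.083, adjusted p = 0.000990).

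Autophagy receptors link ubiquitinated cargo to the ATG8 proteins of the growing membrane, and both measured receptors rose in PC9. SQSTM1, which encodes p62, was at 484 and 483 CPM at T0, 1322 and 1256 CPM after erlotinib and 1209.9 and 1208 CPM after osimertinib in PC9. This was a log2 fold change of 1.41 (SE 0.072, adjusted p = 7.08e-16) and of 1.32 (SE 0.072, adjusted p = 2.75e-15), and all 4 treated libraries were above both T0 libraries. In H1650 its level was 122 and 112 CPM at T0, 149.6 and 144 CPM after erlotinib and 141 and 123 CPM after osimertinib. There it rose with erlotinib, log2 0.33 (SE 0.074, adjusted p = 0.000899), and did not pass the test with osimertinib (adjusted p = 0.0779), though it did in 4 of 19 alternatives (adjusted p from 0.0232 to 0.0390). NBR1, the other receptor, went from 73.8 and 69.3 CPM at T0 to 191 and 225 CPM after erlotinib and 213 and 224 CPM after osimertinib in PC9. It was called higher in all 4 comparisons, with 121 and 125 CPM at T0, 178 and 179 CPM after erlotinib and 189.7 and 187 CPM after osimertinib in H1650. On the annotation used, 20.7% of the exon bases of SQSTM1 overlap MRNIP on the opposite strand, which had 608 to 1621 counts per library against 2624 to 32159 for SQSTM1.

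The ATG8 proteins, which are attached to lipid on the autophagosome membrane, all rose in PC9 with both drugs, and GABARAPL1 rose most. GABARAPL1 (chr12:10212458-10223130) was at 28.4 and 30.0 CPM at T0, 223 and 239.5 CPM after erlotinib and 275 and 315 CPM after osimertinib. Its fold change was 7.92 with erlotinib, log2 2.99 (SE 0.091, adjusted p = 6.31e-21), and 10.1 with osimertinib, 3.34 (SE 0.092, adjusted p = 8.33e-22). In H1650 it was at 23.6 and 26.8 CPM at T0 and rose to 40.9 and 39.2 CPM after erlotinib and 37.9 and 34.1 CPM after osimertinib. These were log2 fold changes of 0.67 (SE 0.094, adjusted p = 1.84e-06) and 0.51 (SE 0.094, adjusted p = 7.83e-05). MAP1LC3B, which encodes the common marker LC3B, was at 43.8 and 49.4 CPM at T0 in PC9, 85.3 and 85.5 CPM after erlotinib and 84.3 and 89.7 CPM after osimertinib. The log2 fold changes were 0.87 (SE 0.084, adjusted p = 4.27e-10) and 0.90 (SE 0.084, adjusted p = 2.54e-10). In H1650 it was called with erlotinib, log2 0.27 (SE 0.083, adjusted p = 0.0104), from 58.5 and 51.9 CPM to 65.3 and 68.0 CPM. That call was lost without H1650 erlotinib replicate 2 (0.24, adjusted p = 0.0857) or H1650 T0 replicate 2 (0.19, adjusted p = 0.197), and osimertinib was not called (adjusted p = 0.114). GABARAPL2 was called higher in PC9 with both drugs and in H1650 with osimertinib, at 46.3 to 69.7 CPM in PC9 and 106 to 125 CPM in H1650. Its H1650 call was lost without H1650 osimertinib replicate 1 (0.24, adjusted p = 0.0759), H1650 osimertinib replicate 2 (0.23, adjusted p = 0.0888), H1650 T0 replicate 1 (0.23, adjusted p = 0.0841) or H1650 T0 replicate 2 (0.23, adjusted p = 0.0863). The close copies MAP1LC3B2 and GABARAPL3 had at most 8 counts and 0 counts in any library.

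Of the 7 genes of autophagy initiation and membrane growth, 5 rose and 2 fell in PC9 with either drug. The background there was 32.7% higher with each drug, and 29.1% and 28.7% lower. ULK1, the kinase that starts autophagy, went from 58.3 and 56.3 CPM at T0 to 286 and 258 CPM after erlotinib and 241 and 212 CPM after osimertinib in PC9. These were log2 fold changes of 2.25 (SE 0.081, adjusted p = 2.93e-19) and 1.98 (SE 0.081, adjusted p = 4.34e-18). WIPI1 (chr17:68420948-68457513), which binds the phosphoinositide that marks the growing membrane, had the highest fold change of the 44 with osimertinib. It was at 2.32 and 2.52 CPM at T0, 14.7 and 17.8 CPM after erlotinib and 27.8 and 26.8 CPM after osimertinib in PC9. The rise was 6.72-fold, log2 2.75 (SE 0.16, adjusted p = 8.16e-15), and 11.3-fold, 3.49 (SE 0.15, adjusted p = 1.72e-17). The exons of WIPI1 overlap ARSG on the opposite strand over 24.3% of their bases, and ARSG had 43 to 122 counts per library against 46 to 602 for WIPI1. In H1650, WIPI1 began at 15.2 and 16.4 CPM and was at 18.3 and 17.7 CPM after erlotinib, which did not pass the test (adjusted p = 0.236). It rose there to 23.9 and 24.7 CPM after osimertinib, log2 0.62 (SE 0.12, adjusted p = 0.000100).

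ATG16L1, part of the complex that directs where ATG8 proteins are attached, went the other way in PC9. It fell from 125 and 125 CPM at T0 to 48.5 and 51.1 CPM after erlotinib and 55.1 and 61.4 CPM after osimertinib. Its log2 fold changes were -1.32 (SE 0.081, adjusted p = 3.71e-14) and -1.10 (SE 0.081, adjusted p = 1.81e-12). In H1650 it stayed between 43.3 and 50.7 CPM and was not called (adjusted p = 0.213 and 0.0900), while the treated PC9 libraries lay between 48.5 and 61.4 CPM. Among the members of the lipid kinase complexes of autophagy, ATG14 was called higher in all 4 comparisons. In PC9 with both drugs, BECN1 was higher, at 35.5 to 48.9 CPM over the 6 libraries, and UVRAG lower, at 22.5 to 31.4 CPM. The UVRAG changes were small, log2 -0.31 (SE 0.11, adjusted p = 0.0192) and -0.26 (SE 0.11, adjusted p = 0.0493). With erlotinib the call was lost with upper quartile normalization and without PC9 erlotinib replicate 1 (-0.30, adjusted p = 0.0628), PC9 erlotinib replicate 2 (-0.32, adjusted p = 0.0535) or PC9 T0 replicate 2 (-0.13, adjusted p = 0.431). With osimertinib it was lost with DESeq2, with upper quartile normalization, with a minimum of 10 counts in every library and without PC9 osimertinib replicate 1 (-0.32, adjusted p = 0.0671), PC9 osimertinib replicate 2 (-0.21, adjusted p = 0.211) or PC9 T0 replicate 2 (-0.084, adjusted p = 0.643). ATG14 ran from 19.4 to 23.1 CPM at T0 in PC9 and from 53.8 to 66.4 CPM after treatment. WIPI2, a relative of WIPI1, was higher in all 4 comparisons, at 112 to 118 CPM at T0 and 155 to 182 CPM after treatment in PC9.

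Beyond these 12 genes, 31 other genes of the autophagy machinery were listed, and 19 were higher and 5 lower in PC9 with erlotinib and 17 higher and 4 lower with osimertinib. In H1650 the counts were 8 higher and 7 lower with erlotinib and 9 higher and 7 lower with osimertinib. Background shares in PC9 were 32.7% higher and 29.1% lower with erlotinib, and 32.7% and 28.7% with osimertinib. For H1650 they were 18% and 18.5%, and 17.8% and 17.9%. The median log2 fold change of that list was 0.31 and 0.28 in PC9, and it was 0.025 and 0.016 in H1650. So in H1650 the rise of GABARAPL1, NBR1, ULK1, ATG14 and WIPI2 stood in a wider list that was close to balanced.

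All 9 cathepsins, the proteases of the lysosome, were called in PC9 with both drugs, 7 higher and 2 lower, although the erlotinib calls of CTSB and CTSL and the osimertinib call of CTSZ were lost in some alternatives. In H1650, 6 were higher with erlotinib and 8 with osimertinib, and 0 were lower with either. Of all genes tested, 61.8% and 61.4% were called in PC9, and 18% and 17.8% were higher in H1650. CTSF, a cysteine protease, went from 10.1 and 9.03 CPM at T0 to 79.5 and 68.7 CPM after erlotinib and 78.9 and 84.8 CPM after osimertinib. The rise was 7.72-fold, log2 2.95 (SE 0.11, adjusted p = 4.29e-19), and 8.54-fold, 3.09 (SE 0.11, adjusted p = 1.51e-19). CTSH, an aminopeptidase, went from 36.4 and 33.5 CPM to 168 and 163 CPM and 251 and 265 CPM, log2 fold changes of 2.24 (SE 0.084, adjusted p = 6.08e-19) and 2.88 (SE 0.085, adjusted p = 3.07e-21). Treated and T0 libraries of both genes did not overlap in either line. In H1650, CTSF rose from 21.3 and 20.9 CPM to 37.7 and 33.9 CPM with erlotinib, log2 0.76 (SE 0.10, adjusted p = 6.60e-07). It rose to 34.0 and 31.0 CPM with osimertinib, log2 0.62 (SE 0.10, adjusted p = 1.44e-05). CTSH there rose from 83.0 and 81.1 CPM to 145 and 131 CPM, log2 0.75 (SE 0.078, adjusted p = 1.23e-08), and to 167 and 149 CPM, 0.95 (SE 0.078, adjusted p = 1.79e-10). CTSA, whose promoter is shown above, went from 91.1 and 86.1 CPM to 230.2 and 202 CPM with erlotinib in PC9, log2 1.29 (SE 0.081, adjusted p = 6.10e-14). With osimertinib it reached 276 and 274 CPM, log2 1.63 (SE 0.081, adjusted p = 3.14e-16). In H1650 it started at 293 and 289.8 CPM, already above any PC9 library. It rose to 416 and 363 CPM with erlotinib, log2 0.42 (SE 0.077, adjusted p = 7.93e-05), and 415 and 381 CPM with osimertinib, 0.45 (SE 0.077, adjusted p = 3.31e-05).

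CTSD, the aspartic protease of the lysosome, rose in both lines with both drugs. In PC9 it was at 224 and 213 CPM at T0, 361 and 308 CPM after erlotinib, log2 0.61 (SE 0.10, adjusted p = 2.97e-06), and 332 and 345 CPM after osimertinib, 0.63 (SE 0.10, adjusted p = 1.85e-06). In H1650 it was at 105 and 89.1 CPM at T0, 198 and 173 CPM after erlotinib, log2 0.94 (SE 0.10, adjusted p = 1.47e-08), and 219 and 173 CPM after osimertinib, 1.02 (SE 0.10, adjusted p = 3.63e-09). An unnamed gene on the same strand shares 41.7% of its exon bases and had at most 55 counts per library, against 2244 to 8063 for CTSD. CTSZ, a carboxypeptidase, fell in PC9, from 232 and 225 CPM to 174 and 154 CPM with erlotinib, log2 -0.48 (SE 0.079, adjusted p = 6.37e-06). With osimertinib it was at 186 and 197 CPM, log2 -0.25 (SE 0.079, adjusted p = 0.00690). It rose in H1650, from 362 and 332 CPM to 426 and 403 CPM, log2 0.25 (SE 0.077, adjusted p = 0.0105), and 488 and 425 CPM, 0.39 (SE 0.077, adjusted p = 0.000177). The PC9 osimertinib call was lost without PC9 osimertinib replicate 1 (-0.21, adjusted p = 0.0647). The H1650 erlotinib call was lost without H1650 erlotinib replicate 1 (0.22, adjusted p = 0.0872) or H1650 T0 replicate 2 (0.19, adjusted p = 0.145).

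CTSS and CTSK, cathepsins best known from antigen-presenting cells and osteoclasts, were at low levels. CTSS in PC9 was at 5.85 and 5.73 CPM at T0, 14.6 and 16.7 CPM after erlotinib, log2 1.44 (SE 0.17, adjusted p = 2.37e-08), and 27.5 and 29.7 CPM after osimertinib, 2.30 (SE 0.17, adjusted p = 1.31e-12). In H1650 no library had more than 1.15 CPM of it. A call there with osimertinib, log2 1.00 (SE 0.38, adjusted p = 0.0394), was lost when any 1 of the 4 libraries compared was left out, at log2 fold changes of 0.87 to 1.17 and adjusted p between 0.0672 and 0.167. It was also lost when each line was fitted alone (adjusted p = 0.129). CTSK rose in PC9 from 0.504 and 1.68 CPM to 5.06 and 4.76 CPM, log2 2.16 (SE 0.34, adjusted p = 3.49e-06), and 5.87 and 5.61 CPM, 2.38 (SE 0.34, adjusted p = 6.83e-07). In H1650 it went from 1.12 and 2.35 CPM to 3.51 and 3.49 CPM, log2 0.98 (SE 0.32, adjusted p = 0.0177), and 2.96 and 3.30 CPM, 0.82 (SE 0.33, adjusted p = 0.0498). The erlotinib call in H1650 was lost without H1650 erlotinib replicate 1 (0.98, adjusted p = 0.0519), H1650 erlotinib replicate 2 (0.98, adjusted p = 0.0523) or H1650 T0 replicate 1 (0.57, adjusted p = 0.222). The osimertinib call there was lost with DESeq2 (adjusted p = 0.108) and with upper quartile normalization (adjusted p = 0.0564). It was also lost without H1650 osimertinib replicate 1 (0.89, adjusted p = 0.0781), H1650 osimertinib replicate 2 (0.74, adjusted p = 0.171), H1650 T0 replicate 1 (0.41, adjusted p = 0.412), PC9 osimertinib replicate 1 (0.82, adjusted p = 0.0551) or PC9 osimertinib replicate 2 (0.82, adjusted p = 0.0541). CTSB, a lysosomal cysteine protease, rose in PC9 from 226 and 229 CPM at T0 to 334 and 373 CPM after osimertinib, log2 0.64 (SE 0.072, adjusted p = 1.00e-08). After erlotinib it was at 253 and 256 CPM, log2 0.16 (SE 0.071, adjusted p = 0.0490), a call lost in 14 of the 19 alternatives (adjusted p from 0.0684 to 0.344), among them DESeq2 and the leaving out of any 1 library other than the 2 of PC9 with osimertinib. In H1650 it was called higher with osimertinib, log2 0.21 (SE 0.071, adjusted p = 0.0209), and not without H1650 osimertinib replicate 1 (0.15, adjusted p = 0.249), H1650 T0 replicate 1 (0.19, adjusted p = 0.133) or H1650 T0 replicate 2 (0.23, adjusted p = 0.0607).

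CTSL was lower in PC9, from 69.6 and 68.9 CPM at T0 to 57.2 and 61.6 CPM after erlotinib, log2 -0.22 (SE 0.082, adjusted p = 0.0221), and 49.2 and 57.0 CPM after osimertinib, -0.39 (SE 0.083, adjusted p = 0.000219). The erlotinib call was lost with upper quartile normalization, with a minimum of 10 counts in every library and without PC9 erlotinib replicate 1 (-0.17, adjusted p = 0.159), PC9 T0 replicate 1 (-0.22, adjusted p = 0.0851) or PC9 T0 replicate 2 (-0.23, adjusted p = 0.0672). CTSL was not called in H1650.

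Among the 7 enzymes and carriers of sugars and lipids, 5 rose and 2 fell in PC9 with either drug. The background there was 32.7% higher with each drug, and 29.1% and 28.7% lower. GAA went from 87.3 and 78.9 CPM at T0 to 292 and 267 CPM after erlotinib, log2 1.75 (SE 0.093, adjusted p = 1.78e-15), and 264 and 254 CPM after osimertinib, 1.64 (SE 0.093, adjusted p = 6.57e-15). In H1650 it went from 75.0 and 63.5 CPM to 139 and 117 CPM, log2 0.89 (SE 0.094, adjusted p = 1.53e-08), and 120.4 and 104 CPM, 0.70 (SE 0.094, adjusted p = 9.60e-07). GLA went the other way and fell in PC9 from 75.7 and 74.7 CPM to 26.4 and 23.4 CPM, log2 -1.60 (SE 0.093, adjusted p = 1.17e-14), and 32.6 and 32.5 CPM, -1.21 (SE 0.092, adjusted p = 3.51e-12). In H1650 it went from 24.4 and 26.7 CPM to 19.3 and 20.7 CPM, log2 -0.35 (SE 0.10, adjusted p = 0.00593), and 20.4 and 21.3 CPM, -0.29 (SE 0.10, adjusted p = 0.0204). The erlotinib change in H1650 was not called without H1650 erlotinib replicate 1 (-0.30, adjusted p = 0.0761) or H1650 T0 replicate 2 (-0.29, adjusted p = 0.0890). The osimertinib change there was not called without H1650 osimertinib replicate 1 (-0.26, adjusted p = 0.136), H1650 osimertinib replicate 2 (-0.32, adjusted p = 0.0586) or H1650 T0 replicate 2 (-0.23, adjusted p = 0.195). GAA and GLA, both glycosidases, thus moved in opposite directions in the same libraries.

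NPC2, the soluble protein that hands cholesterol to NPC1 for export, also fell in PC9 with erlotinib, from 269 and 264 CPM at T0 to 185 and 191 CPM, log2 -0.50 (SE 0.074, adjusted p = 1.19e-06). After osimertinib it was at 221 and 252 CPM, log2 -0.17 (SE 0.074, adjusted p = 0.0456). That call ended with upper quartile normalization (-0.10, adjusted p = 0.212) and with a minimum of 10 counts in every library (-0.12, adjusted p = 0.114). It was also lost without H1650 T0 replicate 2 (-0.17, adjusted p = 0.0518), PC9 osimertinib replicate 1 (-0.084, adjusted p = 0.450), PC9 T0 replicate 1 (-0.17, adjusted p = 0.152) or PC9 T0 replicate 2 (-0.19, adjusted p = 0.107). In H1650, where it was far lower, it was at 29.0 and 29.8 CPM at T0 and 35.5 and 32.2 CPM after erlotinib, which was not called (adjusted p = 0.0702) but was in 3 of 19 alternatives (adjusted p from 0.0319 to 0.0452). After osimertinib it was at 39.0 and 37.8 CPM, log2 0.38 (SE 0.086, adjusted p = 0.000704). GLB1, the lysosomal β-galactosidase, HEXA, a subunit of hexosaminidase A, and LIPA, the acid lipase, were higher in all 4 comparisons. In PC9, GLB1 went from 54.5 and 47.6 CPM at T0 to 99.7 and 106 CPM after erlotinib and 86.4 and 96.0 CPM after osimertinib. HEXA went from 33.4 and 38.3 CPM to 60.6 and 56.7 CPM and 57.1 and 60.9 CPM, and LIPA from 55.2 and 57.6 CPM to 61.9 and 73.3 CPM and 98.1 and 111 CPM. The LIPA call with erlotinib in PC9 was lost with no filter on low counts and without PC9 erlotinib replicate 2 (0.13, adjusted p = 0.270) or PC9 T0 replicate 1 (0.23, adjusted p = 0.0884). In H1650, LIPA started at 70.1 and 71.6 CPM and reached 83.2 and 87.9 CPM with erlotinib and 95.3 and 95.9 CPM with osimertinib, and its erlotinib call was lost without H1650 erlotinib replicate 2 (0.23, adjusted p = 0.109) or H1650 T0 replicate 1 (0.25, adjusted p = 0.0775). NEU1, the sialidase that forms a complex with CTSA, was at 18.4 and 17.0 CPM at T0 in PC9, 49.3 and 45.7 CPM after erlotinib and 51.4 and 58.8 CPM after osimertinib, both called higher. In H1650 it was called with osimertinib alone, at 58.3 and 55.4 CPM at T0, 59.4 and 55.2 CPM after erlotinib and 77.9 and 66.1 CPM after osimertinib, a call lost without H1650 osimertinib replicate 1 (0.22, adjusted p = 0.144).

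A list of 26 other lysosomal hydrolases, of which 25 were in the table and tested, had medians above 0 in both lines with both drugs. In PC9, 15 were higher and 8 lower with erlotinib and 17 higher and 5 lower with osimertinib, with medians of 0.49 and 0.59. The background was 32.7% higher and 29.1% lower with erlotinib, and 32.7% and 28.7% with osimertinib. The share that fell with erlotinib was thus not below the background. In H1650, 13 were higher and 4 lower with erlotinib and 18 higher and 2 lower with osimertinib, with medians of 0.29 and 0.34. There the background was 18% higher and 18.5% lower, and 17.8% and 17.9%.

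The 4 proteins of the lysosome membrane had median log2 fold changes of 0.11 and 0.30 in PC9, where those of the cathepsins were 1.29 and 1.63. LAMP1 was at 318 and 307 CPM at T0 in PC9, 409 and 409 CPM after erlotinib, log2 0.39 (SE 0.069, adjusted p = 1.95e-05), and 414 and 447 CPM after osimertinib, 0.46 (SE 0.069, adjusted p = 1.53e-06). In H1650 it went from 240.2 and 223 CPM to 299 and 283 CPM with erlotinib, log2 0.33 (SE 0.070, adjusted p = 0.000380), and 267 and 264 CPM with osimertinib, 0.20 (SE 0.070, adjusted p = 0.0265). The osimertinib change was not called without H1650 osimertinib replicate 1 (0.19, adjusted p = 0.116), H1650 osimertinib replicate 2 (0.21, adjusted p = 0.0881) or H1650 T0 replicate 2 (0.14, adjusted p = 0.256). LAMP2, its close relative, was higher in PC9 with both drugs, from 208 to 233 CPM at T0 to 267 to 322 CPM after treatment, and was not called in H1650, at 199 to 236 CPM. NPC1, the cholesterol transporter, was not called in PC9 with either drug (adjusted p = 0.146 and 0.157), though it was in 1 alternative with erlotinib (adjusted p = 0.0340) and in 3 with osimertinib (adjusted p from 0.0287 to 0.0439). In H1650 it fell from 69.8 and 69.6 CPM to 51.1 and 55.0 CPM with erlotinib, log2 -0.39 (SE 0.087, adjusted p = 0.000674). It fell to 57.9 and 55.1 CPM with osimertinib, log2 -0.30 (SE 0.087, adjusted p = 0.00657), which was not called without H1650 osimertinib replicate 2 (-0.27, adjusted p = 0.0771). MCOLN1, whose promoter shown above holds TCACGTGA at 2 places, as do those of GAA and LAMP1, was between 10.3 and 14.2 CPM in all 12 libraries. Its adjusted p lay between 0.0880 and 0.765 over the 4 comparisons. The 95% intervals of its log2 fold change were -0.41 to 0.15 and -0.34 to 0.23 in PC9 and -0.60 to -0.035 and -0.51 to 0.047 in H1650. Of 15 other lysosomal membrane proteins, 8 were higher and 1 lower in PC9 with erlotinib, and 10 and 1 with osimertinib. In H1650, 1 was higher and 2 lower with erlotinib and 2 and 3 with osimertinib. Background shares were 32.7% higher and 29.1% lower, and 32.7% and 28.7%, in PC9. In H1650 they were 18% and 18.5%, and 17.8% and 17.9%.

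The V-ATPase did not move as a block. In PC9, 3 of its 9 subunits were higher and 3 lower with erlotinib, and 4 higher and 1 lower with osimertinib, with medians of -0.083 and 0.16. In H1650, 1 was higher and 3 lower with erlotinib, and 1 higher and 1 lower with osimertinib, with medians of -0.080 and 0.0033. The background in PC9 was 32.7% higher and 29.1% lower, and 32.7% and 28.7%. For H1650 it was 18% and 18.5%, and 17.8% and 17.9%. No subunit changed 2-fold in any of the 4 comparisons. ATP6AP1, an accessory subunit, was higher in all 4, from 147 to 149 CPM at T0 to 201 to 235 CPM after treatment in PC9, and its H1650 erlotinib call was lost without H1650 T0 replicate 2 (0.22, adjusted p = 0.0863). ATP6V1D, of the central stalk, fell in PC9 from 81.7 and 90.1 CPM to 58.1 and 66.4 CPM with erlotinib, log2 -0.46 (SE 0.091, adjusted p = 7.04e-05). With osimertinib it was at 60.1 and 72.4 CPM, log2 -0.38 (SE 0.092, adjusted p = 0.000783), which was not called without PC9 osimertinib replicate 1 (-0.25, adjusted p = 0.0542). ATP6V0D1, of the membrane sector, was at 167 and 159 CPM at T0 in H1650 and fell to 120.0 and 129 CPM after erlotinib, log2 -0.39 (SE 0.077, adjusted p = 0.000232). After osimertinib it was at 132 and 126 CPM, log2 -0.34 (SE 0.077, adjusted p = 0.000890). In PC9 it was at 81.0 and 84.1 CPM at T0, 68.8 and 70.2 CPM after erlotinib and 79.5 and 92.5 CPM after osimertinib. Only erlotinib was called there, log2 -0.25 (SE 0.080, adjusted p = 0.00888), and not with upper quartile normalization (adjusted p = 0.0685) or without PC9 T0 replicate 2 (-0.23, adjusted p = 0.0685). ATP6V1E1, of the stator, was higher in PC9 with both drugs, at 52.0 and 55.2 CPM at T0, 65.9 and 71.8 CPM after erlotinib and 77.8 and 79.5 CPM after osimertinib. In the catalytic sector, ATP6V1A was called higher in PC9 with osimertinib, at 73.9 and 80.8 CPM at T0 and 90.0 and 98.4 CPM after it. That call was lost with no filter on low counts and without PC9 osimertinib replicate 2 (0.21, adjusted p = 0.0783) or PC9 T0 replicate 1 (0.21, adjusted p = 0.0938). ATP6V1B2 was called lower in PC9 with erlotinib, at 49.3 and 53.7 CPM and 42.4 and 38.5 CPM. ATP6V1C1 and ATP6V1H, which were not called against T0 (ATP6V1C1 in PC9 with osimertinib was in 4 of 19 alternatives), ran from 92.8 to 149.7 CPM and from 24.5 to 44.6 CPM over the 12 libraries. Of 8 other V-ATPase genes, 3 were higher and 3 lower in PC9 with erlotinib and 4 and 3 with osimertinib, and in H1650 1 was higher and 2 lower with erlotinib and 1 and 1 with osimertinib.

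**Figure D2:**
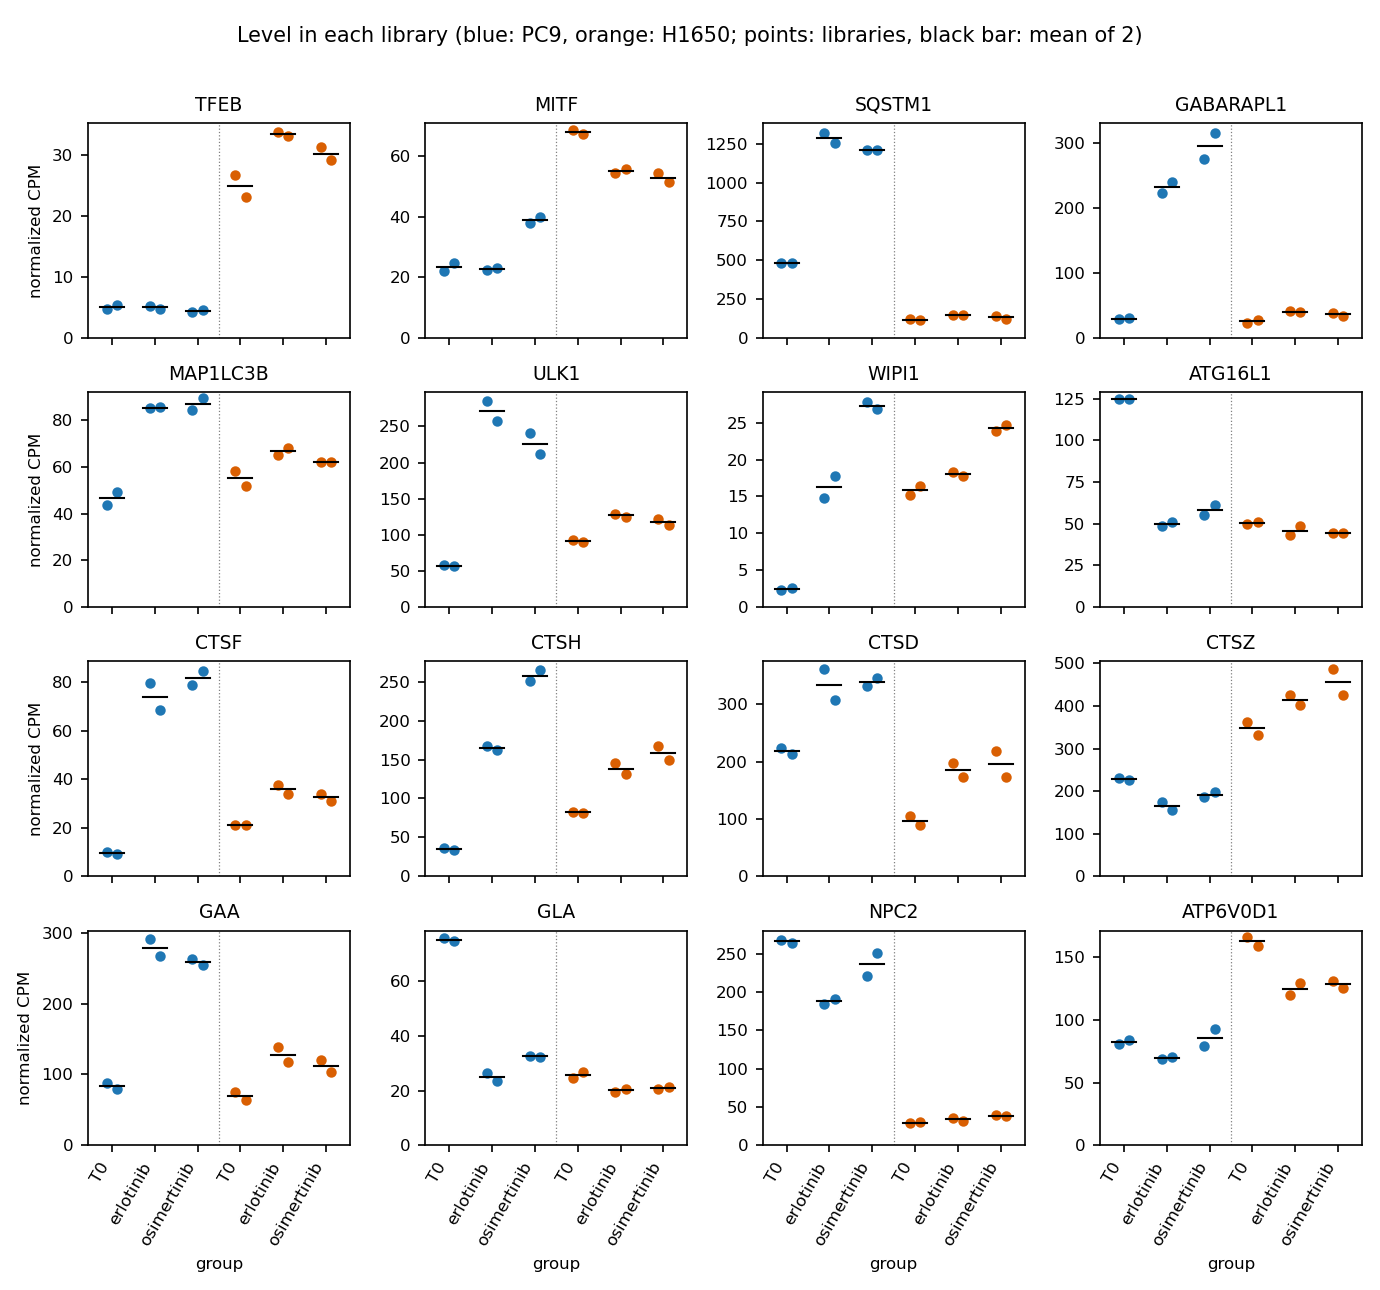
Normalized CPM (vertical axes, each from 0) of 16 genes in every library, with PC9 in blue, H1650 in orange, 1 point per library and a black bar at the mean of 2. SQSTM1, GABARAPL1, ULK1 and CTSF rise steeply in PC9 and little in H1650, ATG16L1 and GLA fall in PC9 to about the H1650 level, and CTSZ falls in PC9 and rises in H1650.

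The change in H1650 was then set against the change in PC9 by testing the drug-by-line difference for each gene. With erlotinib it was lower in H1650 for 18 of the 44 and higher for 7, beside a background of 40.8% called, 19.8% lower and 21.1% higher. With osimertinib it was lower for 27 and higher for 7, beside 41.9% called, 20.5% lower and 21.5% higher. The median difference over the 44 was -0.25 and -0.38, against -0.032 and -0.026 over all genes tested. The lines share no library.

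Both drugs gave a lower change in H1650 for 16 genes, LAMP2, CTSA, CTSF, CTSH, GAA, NEU1, ATP6V0A1, ATP6V1E1, MAP1LC3B, GABARAPL1, SQSTM1, NBR1, ULK1, ATG14, BECN1 and WIPI1. The shares of all genes tested with a lower, or with a higher, change in H1650 for both drugs were not computed. Both differences use the same T0 libraries and are not independent. The BECN1 differences, log2 -0.36 (SE 0.12, adjusted p = 0.0180) and -0.36 (SE 0.12, adjusted p = 0.0173), were each lost in 5 of 18 alternatives, no filter on low counts and 4 libraries left out in turn (adjusted p from 0.0762 to 0.108 and from 0.0564 to 0.158). The size of the difference was largest in WIPI1, at log2 -2.56 (SE 0.20, adjusted p = 2.24e-11) with erlotinib and -2.88 (SE 0.20, adjusted p = 1.24e-12) with osimertinib. GABARAPL1 followed at log2 -2.32 (SE 0.13, adjusted p = 1.78e-14) and -2.82 (SE 0.13, adjusted p = 3.22e-16), and then CTSF at -2.19 (SE 0.15, adjusted p = 1.20e-12) and -2.47 (SE 0.15, adjusted p = 9.14e-14). In each of these the log2 fold change was at least 2.75 in PC9 and at most 0.76 in H1650. ULK1 differed by log2 -1.77 (SE 0.11, adjusted p = 2.63e-13) and -1.61 (SE 0.11, adjusted p = 1.78e-12). SQSTM1 differed by log2 -1.09 (SE 0.10, adjusted p = 1.05e-09) and -1.15 (SE 0.10, adjusted p = 3.26e-10), and CTSH by -1.49 (SE 0.11, adjusted p = 1.31e-11) and -1.93 (SE 0.11, adjusted p = 5.04e-14).

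A higher change in H1650 with both drugs was found for 5 genes, CTSL, CTSZ, GLA, NPC2 and ATG16L1, all of which were called lower in PC9 with both drugs. The CTSL difference with erlotinib, log2 0.35 (SE 0.11, adjusted p = 0.0138), was lost without H1650 erlotinib replicate 2 (0.32, adjusted p = 0.0519), H1650 T0 replicate 1 (0.32, adjusted p = 0.0560) or PC9 erlotinib replicate 1 (0.30, adjusted p = 0.0640). GLA differed by log2 1.24 (SE 0.14, adjusted p = 1.57e-08) with erlotinib and 0.92 (SE 0.13, adjusted p = 2.23e-06) with osimertinib. ATG16L1 differed by log2 1.19 (SE 0.12, adjusted p = 2.06e-09) and 0.92 (SE 0.12, adjusted p = 2.06e-07). CTSZ differed by log2 0.73 (SE 0.11, adjusted p = 3.72e-06) and 0.65 (SE 0.11, adjusted p = 2.10e-05), and NPC2 by 0.70 (SE 0.11, adjusted p = 1.08e-05) and 0.56 (SE 0.11, adjusted p = 0.000194). CTSZ was called in opposite directions in the lines with both drugs. ATP6V0A1 was so with erlotinib, with 44.3 to 45.3 CPM at T0 and 51.8 to 57.5 CPM after it in PC9 and 82.0 to 85.2 CPM and 70.3 to 73.2 CPM in H1650. Its H1650 call, log2 -0.22 (SE 0.077, adjusted p = 0.0254), was lost without H1650 erlotinib replicate 1 (-0.25, adjusted p = 0.0649), H1650 erlotinib replicate 2 (-0.20, adjusted p = 0.134), H1650 T0 replicate 1 (-0.25, adjusted p = 0.0566) or H1650 T0 replicate 2 (-0.19, adjusted p = 0.156). Its PC9 call, log2 0.28 (SE 0.080, adjusted p = 0.00319), was lost without PC9 erlotinib replicate 1 (0.21, adjusted p = 0.0726). MITF and NPC2 were called in opposite directions in the lines with osimertinib. The MITF difference for osimertinib was log2 -1.10 (SE 0.12, adjusted p = 2.29e-08).

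For 6 genes the drug-by-line difference passed the test with neither drug, TFE3, MCOLN1, ATP6V1C1, ATP6V1D, ATP6V1H and ATP6AP1. The 95% interval of the difference for ATP6AP1, which rose in all 4 comparisons, was -0.39 to 0.010 with erlotinib and -0.41 to -0.0057 with osimertinib, and the difference was called in 1 and 3 of 18 alternatives. LAMP1, which also rose in all 4, had an interval of -0.25 to 0.14 with erlotinib, and with osimertinib it differed by log2 -0.26 (SE 0.10, adjusted p = 0.0331). That call was lost with no filter on low counts (-0.19, adjusted p = 0.205) and without H1650 osimertinib replicate 1 (-0.25, adjusted p = 0.0924), H1650 osimertinib replicate 2 (-0.24, adjusted p = 0.111), H1650 T0 replicate 1 (-0.19, adjusted p = 0.209), PC9 osimertinib replicate 2 (-0.20, adjusted p = 0.141), PC9 T0 replicate 1 (-0.28, adjusted p = 0.0640) or PC9 T0 replicate 2 (-0.23, adjusted p = 0.132). CTSD had an interval of 0.060 to 0.60 with erlotinib, called in 7 of 18 alternatives, and differed by log2 0.39 (SE 0.14, adjusted p = 0.0237) with osimertinib. That call was lost with upper quartile normalization (0.33, adjusted p = 0.0585) and without H1650 osimertinib replicate 1 (0.22, adjusted p = 0.213), H1650 T0 replicate 2 (0.28, adjusted p = 0.144), PC9 osimertinib replicate 1 (0.36, adjusted p = 0.0705) or PC9 T0 replicate 1 (0.36, adjusted p = 0.0733).

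**Figure D3:**
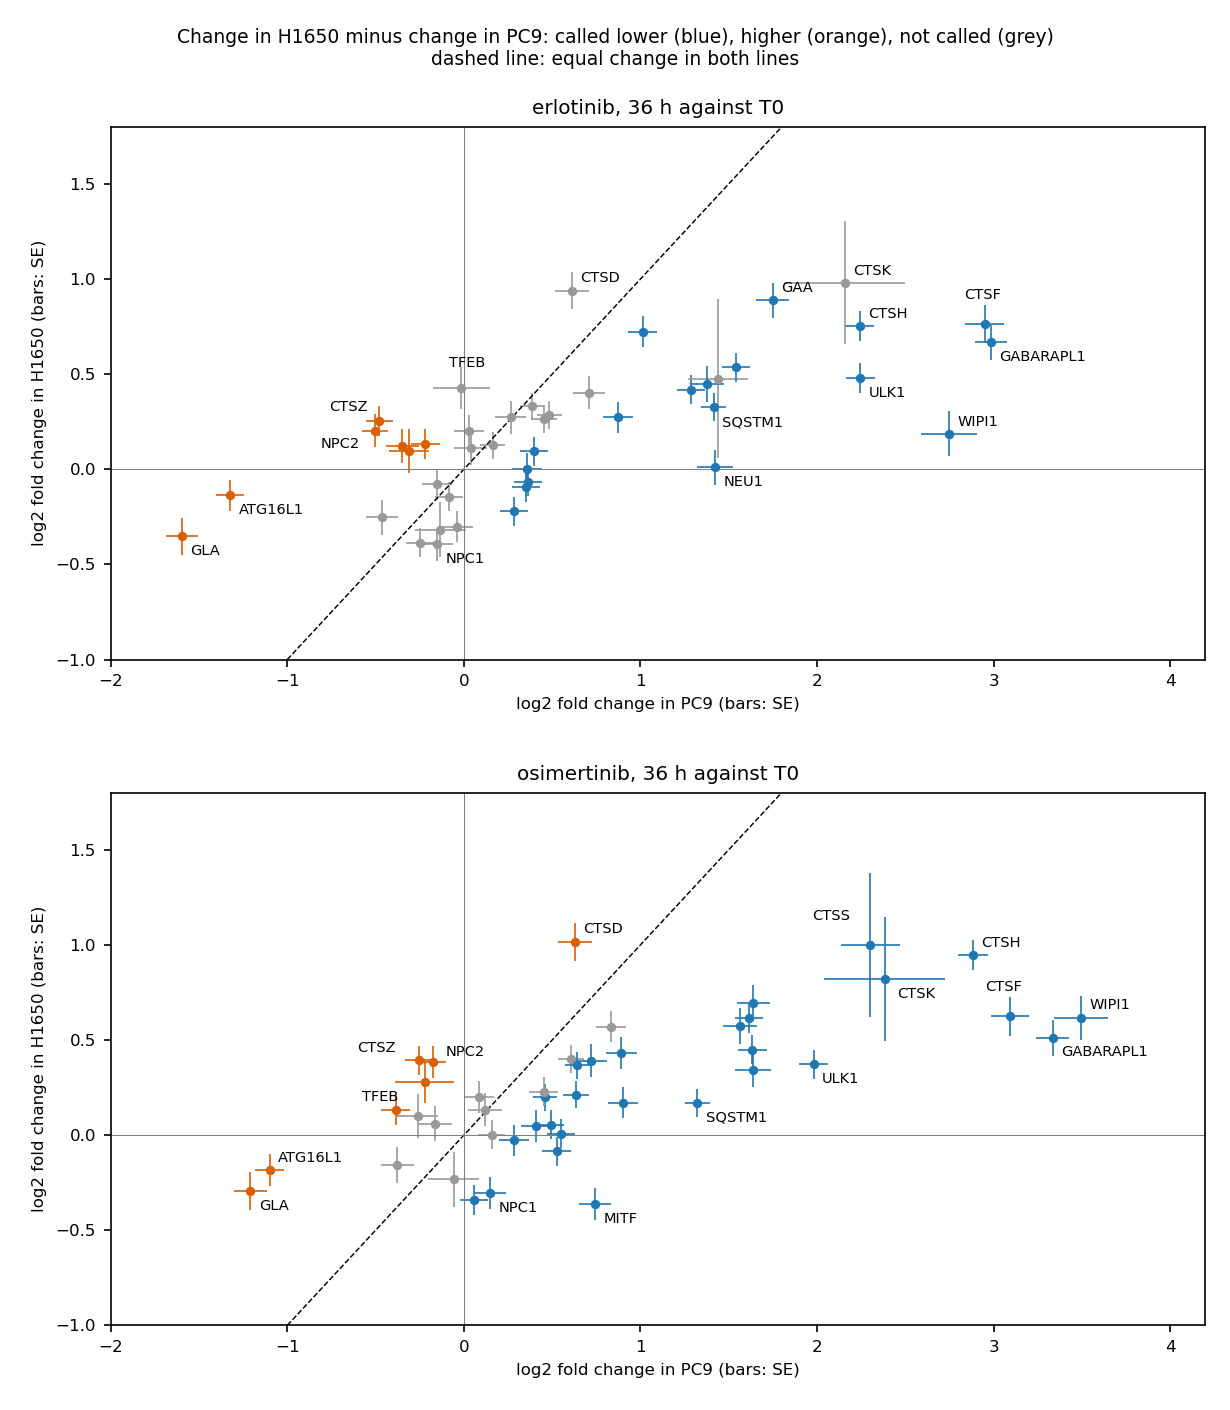
Log2 fold change in H1650 (vertical) against that in PC9 (horizontal) for the 44 genes, after erlotinib (top) and osimertinib (bottom), with bars of 1 SE and a dashed line of equal change. Blue and orange points were called lower and higher in H1650 in the drug-by-line test, and grey points were not called. The blue points run far to the right along a shallow band, with WIPI1, GABARAPL1, CTSF and CTSH at its end, and CTSD lies above the dashed line in both plots.

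Osimertinib and erlotinib were compared within each line at the doses used, which differ (0.1 µM against 10 µM), so the values compare these 2 treatments and not equal doses of the drugs. In PC9, 16 of the 44 were higher with osimertinib and 1 was lower, beside a background of 16.6% called, 10.1% higher and 6.41% lower, and the median over the 44 was 0.17 against 0.0036 over all genes. The count depended on the processing and on single libraries. It was 14 with no filter on low counts and 14 with 1 fit per line. Leaving out any 1 of the 4 libraries compared lowered it, most of all PC9 osimertinib replicate 2. CTSS had the largest difference, log2 0.86 (SE 0.15, adjusted p = 0.000109), followed by MITF, 0.78 (SE 0.090, adjusted p = 2.67e-07). Next were WIPI1, log2 0.75 (SE 0.12, adjusted p = 2.38e-05), and CTSH, 0.64 (SE 0.076, adjusted p = 4.05e-07). The libraries of the 2 drugs did not overlap in any of these 4 genes. CTSA, at log2 0.35 (SE 0.078, adjusted p = 0.00194), and GABARAPL1, at 0.35 (SE 0.080, adjusted p = 0.00229), were also higher with osimertinib. GLA, lowered by both drugs, fell less with osimertinib, log2 0.39 (SE 0.10, adjusted p = 0.00483). The CTSA call was lost without PC9 erlotinib replicate 2 (0.26, adjusted p = 0.0669), and the GABARAPL1 call without PC9 osimertinib replicate 2 (0.25, adjusted p = 0.0969). The GLA call was lost without PC9 erlotinib replicate 2 (0.30, adjusted p = 0.0939). ULK1 was the 1 gene lower with osimertinib, log2 -0.27 (SE 0.076, adjusted p = 0.0143), and was not called without PC9 erlotinib replicate 1 (-0.19, adjusted p = 0.197) or PC9 osimertinib replicate 2 (-0.18, adjusted p = 0.240). Both autophagy receptors were among the 27 genes not called, with a 95% interval of -0.23 to 0.046 for SQSTM1.

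In H1650 the 2 treatments could be told apart for 2 of the 44 genes, both higher with osimertinib, beside a background of 8.75% called, 5.02% higher and 3.73% lower. The count of 2 is below the background share, and 6 of the 44 had an unadjusted p under 0.05. The 2 called were WIPI1, at 18.3 and 17.7 CPM with erlotinib and 23.9 and 24.7 CPM with osimertinib, log2 0.43 (SE 0.12, adjusted p = 0.0161), and NEU1. Leaving out any 1 of the 4 libraries compared ended the WIPI1 call, at log2 fold changes of 0.41 to 0.46 and adjusted p between 0.0700 and 0.109. The NEU1 call was lost without H1650 erlotinib replicate 2 (0.29, adjusted p = 0.166) or H1650 osimertinib replicate 1 (0.21, adjusted p = 0.384). The count was then 1 without erlotinib replicate 1 or osimertinib replicate 2 and 0 without erlotinib replicate 2 or osimertinib replicate 1. Among the 42 genes not called, 41 had a 95% interval within 2-fold either way, the exception being CTSS, whose counts in H1650 were low.

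**Figure D4:**
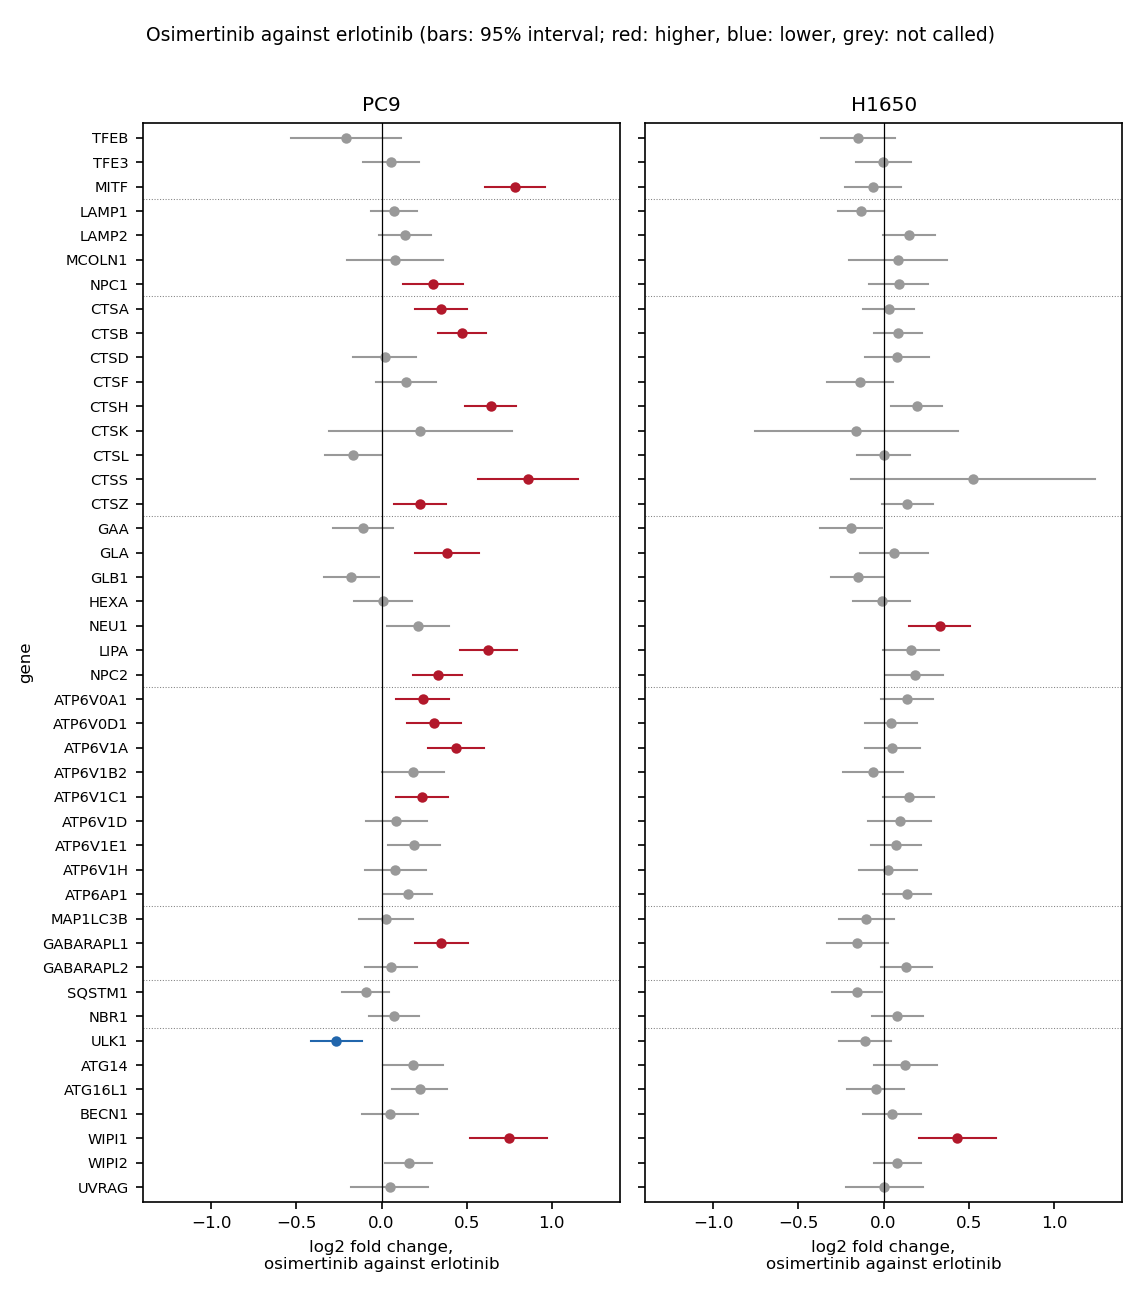
Log2 fold change of osimertinib against erlotinib for the 44 genes in PC9 (left) and H1650 (right), as points with 95% intervals, in red where called higher, blue where called lower and grey where not called. PC9 has 16 red points and 1 blue, H1650 has 2 red points, and the widest intervals belong to CTSK and to CTSS in H1650.

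Before treatment the lines already differed in most of these genes. At T0, 27 of the 44 were higher and 10 lower in H1650 than in PC9, beside a background of 69.6% called, 35.8% higher and 33.8% lower, and the median was 0.42 against 0.039 over all genes. All 3 factors were higher in H1650, TFEB by log2 2.29 (SE 0.14, adjusted p = 1.29e-14), and MITF by 1.54 (SE 0.089, adjusted p = 6.98e-15). TFE3 was higher by log2 0.26 (SE 0.084, adjusted p = 0.00845), which was not called with no filter on low counts (0.20, adjusted p = 0.0796) or without H1650 T0 replicate 1 (0.21, adjusted p = 0.0883) or PC9 T0 replicate 2 (0.24, adjusted p = 0.0648). WIPI1 was 6.54 times as high in H1650, log2 2.71 (SE 0.16, adjusted p = 8.92e-15), and CTSA 3.29 times, 1.72 (SE 0.081, adjusted p = 7.88e-17). Among the genes lower in H1650 were NPC2, at log2 -3.18 (SE 0.084, adjusted p = 1.44e-22), CTSS, at -3.44 (SE 0.28, adjusted p = 1.08e-11), and SQSTM1, at -2.04 (SE 0.075, adjusted p = 2.68e-19). So were GLA, at log2 -1.55 (SE 0.093, adjusted p = 1.49e-14), and ATG16L1, at -1.31 (SE 0.081, adjusted p = 3.71e-14). Of the 9 V-ATPase subunits 7 were higher in H1650 and 1 lower, while 6 of 8 other V-ATPase genes were lower and 1 higher, so the complex as listed gave no single direction.

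Levels of different genes can be set side by side once they are divided by gene length. Summed over the 44 genes, the length-scaled level in PC9 was 841 CPM per kb at T0, 1175 after erlotinib and 1297 after osimertinib, and in H1650 it was 868, 1032 and 1074 CPM per kb. At T0 the lines were thus close in the total and unlike in its parts. CTSZ had the highest length-scaled level at T0 in both lines, 112 CPM per kb in PC9 and 169.9 in H1650, and it stayed first in treated H1650 cells. In PC9, SQSTM1 took its place in this order after treatment, at 171 CPM per kb with erlotinib and 160.4 with osimertinib, from 64.2 at T0. Without division by length SQSTM1 was already the highest at T0 in PC9, at a mean of 483 CPM against 228 CPM for CTSZ. The 2 autophagy receptors together took 8.64% of the length-scaled level of the 44 genes at T0 in PC9 and 16.7% and 14.4% after the drugs, and the 3 ATG8 proteins went from 3.85% to 8.09% and 8.63%. In H1650 the receptors took 3.48% at T0 and 3.95% and 3.72% after the drugs, and the ATG8 proteins 6.06%, 5.90% and 5.84%. TFEB was the lowest of the 44 in treated PC9 cells, at 0.890 and 0.770 CPM per kb.

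**Figure D5:**
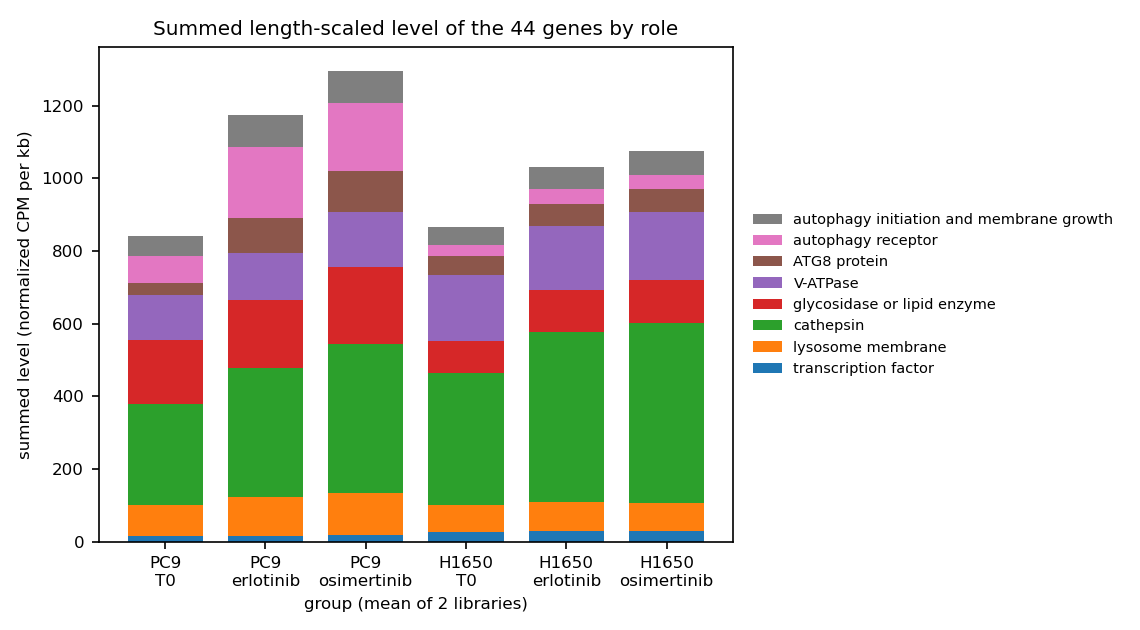
Summed length-scaled level (normalized CPM per kb, vertical axis from 0) of the 44 genes in each group, as the mean of 2 libraries, stacked by role. The bars of PC9 rise from 841 at T0 to 1175 and 1297, with the cathepsin, receptor and ATG8 layers widening most. Those of H1650 rise from 868 to 1032 and 1074, mainly in the cathepsin layer. That layer goes from 278 to 353 and 410 in PC9 and from 363 to 466 and 495 in H1650.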

How the data were processed

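RNA-seq of PC9 and H1650 cells at T0 and 36 h after erlotinib or osimertinib was analysed, with 2 libraries in each of 6 groups taken from the labels. Reads went through the DolphinNext pipeline and featureCounts, and the authors deposited whole-number counts per gene without normalization. The submitters' processing notes name GRCh38 and DESeq2, while the aligner, the annotation and the strandedness are not given in the sources used here.

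For the tests, edgeR 4.0.16 was run under R 4.3.3. Filtering by group on expression retained 19108 of 60591 genes, which held at least 99.9% of the counts of every library, and normalization used TMM, with factors from 0.941 to 1.08. All 12 libraries entered a quasi-likelihood fit with a mean for each of the 6 groups, from which 9 contrasts were tested. A gene was called where its p, adjusted by Benjamini-Hochberg over all genes tested, was under 0.05. The SE is the contrast divided by the square root of its F statistic, and 95% intervals are for single genes, not adjusted. In simulated data with 200 genes changed by 1 log2 unit, 185 were recovered for erlotinib in PC9 and 165 for the drug-by-line difference. False calls numbered 11 and 9. The changed genes were drawn from those well expressed at T0 in both lines. Recovery of smaller changes, of genes at low counts or with most genes changed was not measured.

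The 44 genes and the other gene lists were chosen with earlier results of these data known. Full statistics are given for TFEB, TFE3, MITF, LAMP1, CTSD, SQSTM1 and MAP1LC3B, for the 3 highest and 3 lowest mean changes called with both drugs in each line, likewise for the drug-by-line differences, for the highest and lowest difference between the drugs in each line and for the 2 highest and 2 lowest differences at T0, among genes with a mean of at least 1 CPM. GAA, CTSA and MCOLN1 were added after their values were seen. CTSB, CTSL, UVRAG, BECN1 and ATP6V0A1 have an SE and adjusted p for some comparisons only. They are not counted among the genes given full statistics. Lists and roles are described by counts and medians with no test. Their counts are to be read beside the shares of all genes given for each comparison. Positions and overlaps come from GENCODE 29 and promoters from RefSeq. DESeq2 1.42.0, RLE and upper quartile normalization, no filter, a minimum of 10 counts in every library, 1 fit per line, a replicate block and leaving out each library were run as alternatives. Depth limits and floors cover counting error only.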

Additional observations from a re-analysis of the deposited data

Results flagged for a closer look

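The drug-by-line test singled out the members whose change differed between H1650 and PC9, 25 with erlotinib and 34 with osimertinib of the 44 genes, and the values below are the change in H1650 minus that in PC9 on the log2 scale. With erlotinib, those of the genes given full statistics were CTSA at -0.87, CTSF at -2.19, CTSH at -1.49, GAA at -0.86, MAP1LC3B at -0.60, GABARAPL1 at -2.32, SQSTM1 at -1.09, ULK1 at -1.77 and WIPI1 at -2.56. CTSZ at 0.73, GLA at 1.24, NPC2 at 0.70 and ATG16L1 at 1.19 differed in the other direction. With osimertinib, and again among the genes given full statistics, the differences below 0 were MITF at -1.10, LAMP1 at -0.26, NPC1 at -0.45, CTSA at -1.19, CTSF at -2.47, CTSH at -1.93, CTSK at -1.56, CTSS at -1.30, GAA at -0.94, ATP6V0D1 at -0.40, MAP1LC3B at -0.73, GABARAPL1 at -2.82, SQSTM1 at -1.15, ULK1 at -1.61 and WIPI1 at -2.88. Those above 0 were TFEB at 0.50, CTSD at 0.39, CTSZ at 0.65, GLA at 0.92, NPC2 at 0.56 and ATG16L1 at 0.92.

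Of these osimertinib differences, 7 lost their call in 1 or more alternatives. LAMP1 and CTSD are described above. TFEB was not called with DESeq2 (adjusted p = 0.116), RLE (adjusted p = 0.0506) or upper quartile normalization (adjusted p = 0.0732), nor without H1650 osimertinib replicate 1 (0.47, adjusted p = 0.110), H1650 T0 replicate 2 (0.40, adjusted p = 0.165), PC9 osimertinib replicate 1 (0.44, adjusted p = 0.168), PC9 osimertinib replicate 2 (0.57, adjusted p = 0.0598) or PC9 T0 replicate 2 (0.39, adjusted p = 0.220). NPC1 was not called without PC9 T0 replicate 1 (-0.33, adjusted p = 0.0632), and ATP6V0D1 not without PC9 osimertinib replicate 2 (-0.28, adjusted p = 0.0616). CTSK was not called without H1650 T0 replicate 2 (-0.90, adjusted p = 0.207) or PC9 T0 replicate 1 (-0.95, adjusted p = 0.105), and CTSS not without H1650 osimertinib replicate 2 (-1.18, adjusted p = 0.0577) or H1650 T0 replicate 2 (-1.12, adjusted p = 0.155). Outside the genes given full statistics, the osimertinib differences of HEXA, ATP6V1A, BECN1 and WIPI2 were also lost in 7, 8, 5 and 7 of 18 alternatives, and the erlotinib differences of GLB1, GABARAPL2, UVRAG, BECN1 and CTSL in 11, 10, 8, 5 and 3.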

How the results depend on the processing

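Of 168 counts of called members under the 19 alternatives (1 fit per line gives no value across lines), 162 stayed within 1.5 times the reported count, and no member was called in the opposite direction under any alternative. The exceptions were the comparisons between the drugs. In H1650 the replicate block raised the count from 2 to 4 (3 higher and 1 lower), and leaving out 1 library gave 0 to 2. In PC9 leaving out 1 library gave 9 to 17 in place of 17. Over all genes, the H1650 count went from 1672 to 2670 with the block and to 1093, 1045 and 782 without erlotinib replicate 1, erlotinib replicate 2 and osimertinib replicate 1, and the PC9 count from 3163 to 2108 without osimertinib replicate 2.

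Correlations between groups of the deviations of same-numbered replicates were weak, from -0.067 to 0.095. The replicate block nevertheless raised the number of genes called in every comparison, for example from 3163 to 4166 between the drugs in PC9. Whether replicates of the same number share an effect was not tested on its own. With the replicate block the counts of called members were 37 and 37 in PC9, 28 and 32 in H1650, 29 and 37 for the drug-by-line differences, 21 for the drugs in PC9 and 39 at T0, and no member lost its call.

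Values of single genes were followed where a gene given full statistics was called, and for the factors in every comparison of a drug with T0. Among these, values that changed sign were not called in any setting and belong to the factors in PC9. TFEB with erlotinib was 0.077 with upper quartile normalization and 0.035 with a minimum of 10 counts, and -0.12 to 0.092 when 1 library was left out. MITF with erlotinib was 0.050 and 0.0079 under those settings and -0.13 to 0.043 when 1 library was left out. TFE3 with erlotinib was -0.034 with no filter and -0.014 with 1 fit per line, and with osimertinib -0.00044 with no filter. Of the values followed, 2647 stayed as reported, 99 lost their call and 14 gained one. Other values that were not called were outside this count, so its gains could come from the factors only. The gains were TFEB in H1650 with osimertinib in 7 alternatives and TFE3 in H1650 with erlotinib in 4 and with osimertinib in 3, the replicate block, upper quartile normalization and a minimum of 10 counts among them in each case. Values outside the count gained calls as well. Between the lines at T0, GABARAPL1 was called in 13 of 18 alternatives and WIPI2 in 9. The erlotinib drug-by-line difference was called in 8 of 18 for CTSK and in 7 for CTSD. ATP6V1C1 in PC9 with osimertinib was called in 4 (adjusted p from 0.00868 to 0.0282). The cause was not tested. Depth limits CTSK and CTSS, whose lowest libraries were at 0.504 and 0.419 CPM, against 3 counts at 0.116 to 0.168 CPM.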

Other observations

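The proteins that sense nutrients on the lysosome surface, the Rag GTPases, the Ragulator complex, folliculin with its partners and mTORC1 itself, were listed beside the 44 genes. Of 15 such genes, 9 were higher and 4 lower in PC9 with erlotinib and 8 higher and 4 lower with osimertinib (86.7% and 80.0% called, beside 61.8% and 61.4% of all genes tested), with medians of 0.37 and 0.31 on the log2 scale. In H1650, 3 were higher and 1 lower with erlotinib and 4 higher and 3 lower with osimertinib (26.7% and 46.7% called, beside 36.5% and 35.7% of all genes), with medians of 0.0088 and 0.049. FNIP2, a partner of folliculin, had the lowest log2 fold change of the list in PC9, -2.30 with erlotinib (adjusted p = 8.20e-11, edgeR's quasi-likelihood test, Benjamini-Hochberg over all genes) and -1.67 with osimertinib (adjusted p = 1.93e-08). RRAGB, which encodes a Rag GTPase, had the highest in H1650, 0.63 with erlotinib (adjusted p = 4.62e-05) and 0.58 with osimertinib (adjusted p = 0.000125), and in PC9 with osimertinib, 1.76 (adjusted p = 7.17e-14). The drug-by-line difference for FNIP2 was 2.02 with erlotinib (adjusted p = 1.33e-07) and 0.86 with osimertinib (adjusted p = 0.00516). RRAGD, which encodes another Rag GTPase, had 1 and 1 counts at T0 in PC9, 15 and 4 after erlotinib and 0 and 3 after osimertinib. It had the highest fitted change of the list in PC9 with erlotinib (adjusted p = 0.0109) and the lowest drug-by-line difference with erlotinib (adjusted p = 0.0126). No fold is given for it, since its T0 counts in PC9 were below 3, and in H1650 it had 66 to 114 counts per library.

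The 44 genes together held 0.365% and 0.366% of all counts in the T0 libraries of PC9, 0.619% and 0.599% after erlotinib and 0.634% and 0.652% after osimertinib. In H1650 they held 0.396% and 0.390% at T0, 0.513% and 0.492% after erlotinib and 0.512% and 0.487% after osimertinib. All 4 treated libraries of each line lay above both of its T0 libraries.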
